A study of Mus musculus with 2 samples.

Results

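The Wnt pathway was described here through 57 protein-coding genes of adult mouse lung: the 19 Wnt ligands, the acyltransferase gene Porcn, 10 Frizzled receptors, the co-receptors Lrp5 and Lrp6, 9 secreted inhibitors, 4 R-spondins, 3 LGR receptors, 2 receptor ubiquitin ligases, beta-catenin with 2 axins, and 4 TCF/LEF factors. They were chosen by gene symbol, by family name for the Wnt, Fzd, Sfrp, Dkk and Rspo genes and by single names for the others. The table they come from holds 43346 genes, of which 21474 were annotated as protein-coding. Polyadenylated RNA was sequenced from 2 libraries of lung from C57BL/6J littermates of 8 weeks, with males and females pooled and no treatment or altered allele named in the labels. The libraries, replicate 1 and replicate 2, are separate tissue samples under 1 donor record and form 1 group. The number of animals is not stated, so the spread between them may be technical in part. With 1 group there is no comparison between conditions and no p-value; each difference below compares these libraries alone, replicate 1 over replicate 2.

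Wnt proteins are secreted, lipid-modified ligands that need Porcupine (Porcn) for their acyl group and bind a Frizzled receptor together with LRP5 or LRP6. In the beta-catenin branch this halts a destruction complex built on Axin, so that beta-catenin accumulates and joins TCF/LEF factors on DNA; R-spondins raise the response by removing the ubiquitin ligases RNF43 and ZNRF3, which clear Frizzled from the cell surface. In mouse lung, Wnt2 and Wnt2b are needed to specify the organ in the embryo, and Wnt signals between mesenchyme and epithelium act on branching and on alveolar type 2 cells.

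Gene counts summed to 48234758 in replicate 1 and 44182823 in replicate 2, of which the 57 genes held 0.220% and 0.215%. Markers of lung were high in both libraries: the summed level of 10 alveolar type 2 genes was 31484 and 32670 TPM (transcript abundance scaled to a fixed total per library), and that of 8 endothelial genes 3448 and 3481 TPM. Markers of other tissues set the libraries apart. A list of 8 squamous epithelial genes of oesophagus or mouth summed to 5552 TPM in replicate 1 against 1.35 TPM in replicate 2, and 8 skeletal muscle genes summed to 2766 against 59.8 TPM. In the other direction, 7 intestinal and pancreatic genes summed to 3.76 TPM in replicate 1 against 217 TPM in replicate 2, and 5 erythroid genes to 22915 against 63391 TPM. The part of these tissues in the differences below was not tested. In bulk tissue, fewer cells of a type and less RNA per cell cannot be told apart.

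Most of the pathway was expressed. At 1 TPM or more, 40 of the 57 genes were detected in both libraries, beside 60.5% of all protein-coding genes; Wnt10a and Fzd10 were detected in replicate 1 only, and 15 genes in neither. The median of the mean TPM was 6.70 over the 57 genes and 4.23 over all protein-coding genes, and among detected genes it was 14.4 and 15.6. Intracellular and receptor genes stood at the top, with Ctnnb1, Lrp5, Porcn and Fzd1 highest, while the 15 undetected genes were 7 Wnt ligands, 3 R-spondins, 3 Dickkopf genes, Fzd9 and Lgr5.

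**Figure D1:**
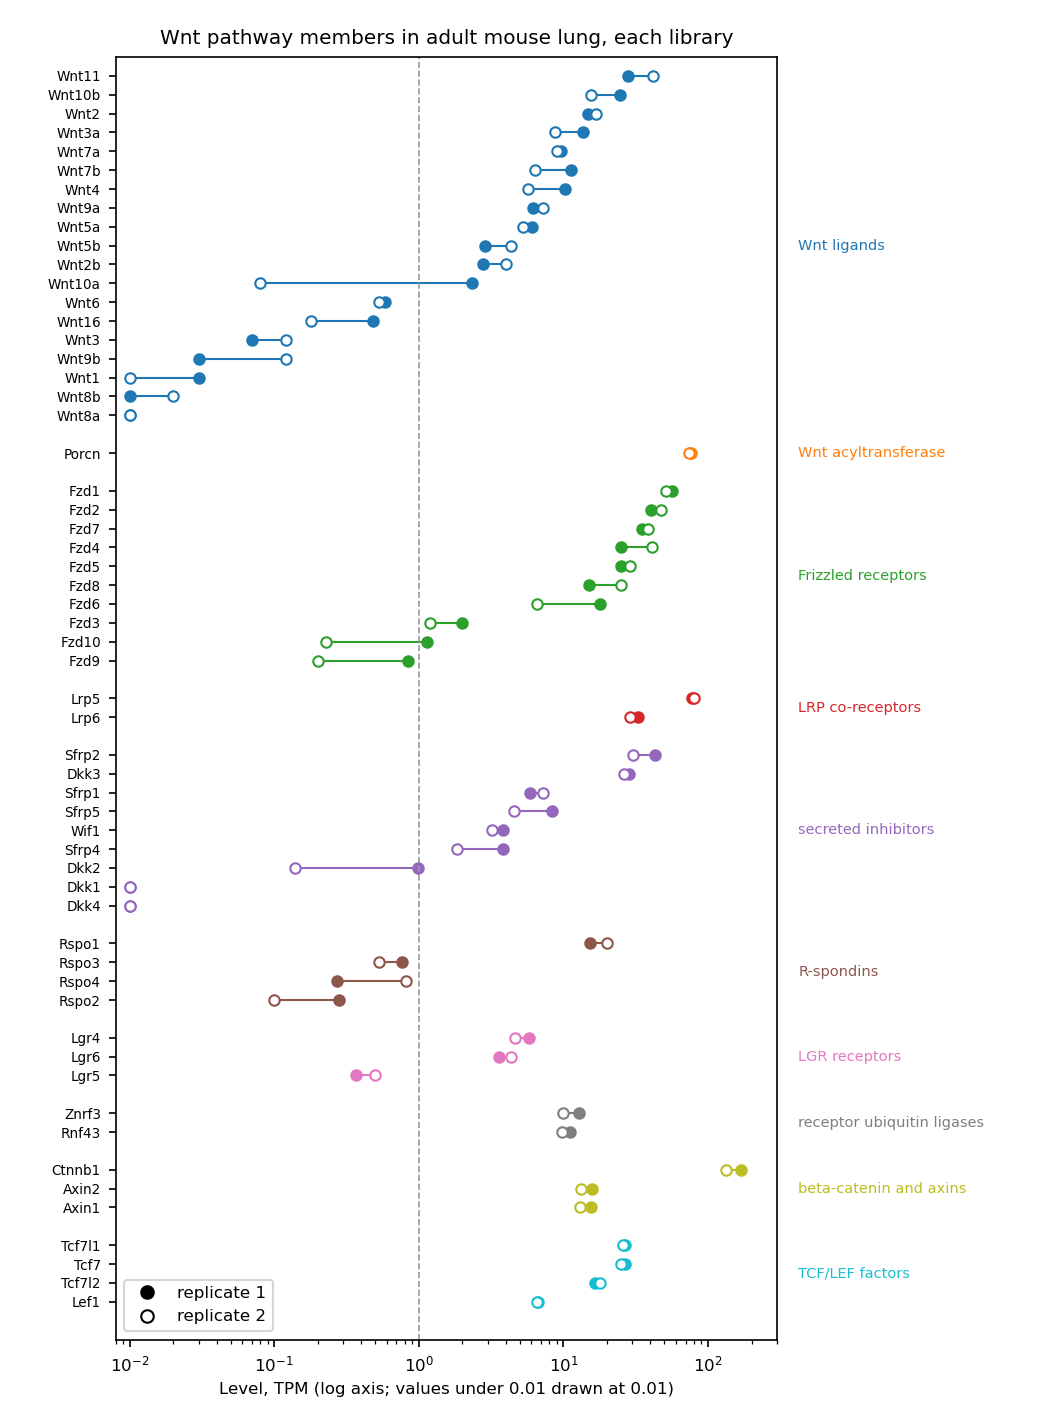
Level of each of the 57 Wnt pathway genes in TPM on a log axis, grouped by role, with filled points for replicate 1 and open points for replicate 2; the dashed line marks 1 TPM. Ctnnb1 lies furthest right, at 168 and 134 TPM, and the pair of points for Wnt10a, at 2.34 and 0.08 TPM, is far apart.

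The ligands together summed to 134 TPM in replicate 1 and 126 TPM in replicate 2, and 11 of 19 were detected in both. Wnt11, a ligand best known for beta-catenin-independent signals, led with 28.0 and 41.7 TPM in replicates 1 and 2. It made up 20.9% and 33.2% of ligand TPM, although most of it lay on transcripts without a complete coding sequence, as given further down. Wnt10b, which restrains fat cell formation, had 24.8 and 15.5 TPM. Wnt2, the mesenchymal ligand of the lung bud, had 14.9 and 16.8 TPM. These were the ligands of highest mean level, and Wnt11 ranked first in each library.

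Between these and 5 TPM lay 6 ligands. Wnt3a, the most used activator of beta-catenin in culture, had 13.6 and 8.71 TPM, and Wnt7a, known from limb patterning, had 9.60 and 9.03 TPM. Wnt7b, an epithelial ligand that drives growth of the lung in the embryo, had 11.3 and 6.34 TPM, and Wnt4, needed for kidney tubules, had 10.3 and 5.67 TPM. Both were higher in replicate 1, with folds of 1.52 (1.38 to 1.66) for Wnt7b and 1.56 (1.43 to 1.70) for Wnt4. Wnt9a, a ligand of joint formation, had 6.13 and 7.27 TPM, and Wnt5a, the prototype of signalling through ROR2, had 6.11 and 5.25 TPM. A fold here is the ratio of counts scaled by TMM, a trimmed mean of ratios, and its range is the exact Clopper-Pearson 95% interval, which covers counting error only.

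Lower levels were measured for Wnt5b (2.87 and 4.37 TPM), a relative of Wnt5a, and Wnt2b (2.79 and 3.98 TPM), the partner of Wnt2 in lung specification. Both were higher in replicate 2, by 1.81-fold (1.52 to 2.16) for Wnt5b and 1.67-fold (1.45 to 1.92) for Wnt2b. Wnt10a, a ligand of teeth, hair and sweat glands (mm10 chromosome 1, 74791516 to 74804179, plus strand), had 2.34 TPM from 191 counts in replicate 1 and 0.08 TPM from 6 counts in replicate 2. That is a log2 ratio of 4.37 and a fold of 26.6 (11.98 to 73.3), the largest among the 44 genes averaging 50 counts or more.

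The ligands under 1 TPM in both libraries were Wnt6, Wnt16, Wnt3, Wnt9b, Wnt1, Wnt8b and Wnt8a, at 0 to 0.58 TPM. Wnt6 had 39 counts in replicate 1 and 32 in replicate 2, Wnt16 had 25 and 6, Wnt3 had 7 and 12, and Wnt9b had 4 and 18. Wnt1 and Wnt8b had at most 2 counts in either library and Wnt8a had 0 in both, against which a count of 0 allows up to 3 counts per library. Wnt1, Wnt8b and Wnt8a were thus near or below the limit of detection at this depth, while the others were counted in both libraries at low levels.

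Several Wnt genes are neighbours in the genome, and levels were unlike in some of these pairs and alike in others. Wnt10b and Wnt1 lie 11707 bp apart on chromosome 15 in opposite orientation, and Wnt1 was at 0.03 and 0 TPM beside the 24.8 and 15.5 TPM of Wnt10b. Wnt3a and Wnt9a lie 16176 bp apart on chromosome 11 and were both detected. Wnt9b and Wnt3, 24329 bp apart on the same chromosome, were both at 0.12 TPM or less in each library. Wnt6 lies 6194 bp from Wnt10a on chromosome 1; it had 0.58 and 0.53 TPM, so the gap between the libraries at Wnt10a had no counterpart at its neighbour.

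Porcn, which adds the acyl group to every Wnt, was expressed at 76.2 TPM in replicate 1 and 74.03 TPM in replicate 2. It stood at percentile 91.6 of protein-coding genes by mean TPM, above every single ligand.

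The Frizzled receptors summed to 219 and 240 TPM, and 8 of 10 were detected in both libraries. Fzd1 led with 56.8 and 51.3 TPM, followed by Fzd2 with 40.4 and 47.4 TPM. Fzd7, a receptor of stem cells in several epithelia, had 34.9 and 38.2 TPM, and Fzd5 had 24.9 and 28.7 TPM. For these 4 receptors the libraries differed by at most 1.37-fold, and the order was Fzd1 over Fzd2 over Fzd7 over Fzd5 in replicate 1 as in replicate 2, if Fzd4 is set aside.

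Other Frizzled genes differed more. Fzd4, which also binds Norrin and is needed in the vessels of the retina, had 25.1 TPM in replicate 1 and 41.0 TPM in replicate 2, and Fzd8 had 15.0 and 25.2 TPM. Both were higher in replicate 2, by 1.91-fold (1.83 to 2.00) for Fzd4 and 1.97-fold (1.86 to 2.10) for Fzd8, just inside the 2-fold limit, which both intervals reach. Fzd6, known from the patterning of hair (chromosome 15, 39006034 to 39038188), had 17.9 TPM from 2506 counts in replicate 1 against 6.58 TPM from 898 counts in replicate 2. Its fold of 2.33 (2.16 to 2.52) was in the other direction and passed the limit.

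The remaining receptors were low in both libraries. Fzd3, a receptor of axon guidance, had 1.99 and 1.20 TPM. Fzd10 (chromosome 5, 128600844 to 128604093) had 1.14 TPM from 125 counts in replicate 1 against 0.23 TPM from 25 counts in replicate 2, a fold of 4.17 (2.70 to 6.69). Fzd9 had 0.84 and 0.20 TPM, on 63 and 15 counts, and fell short of the count minimum. All of them were higher in replicate 1, on few reads.

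The co-receptors were among the most expressed genes of the pathway. Lrp5, mutated in human disorders of bone mass, had 77.9 and 79.9 TPM, and Lrp6 had 32.9 and 28.7 TPM. Lrp5 therefore stood above Lrp6 in each library.

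Secreted inhibitors summed to 94.5 TPM in replicate 1 and 73.7 TPM in replicate 2, and 6 of 9 were detected in both. Sfrp2, a Frizzled-related protein that binds Wnts outside the cell, led with 43.1 and 30.4 TPM. Its difference in TPM was not in the scaled counts, where the log2 ratio was 0.01. Dkk3, a divergent Dickkopf protein, had 28.6 and 26.3 TPM. Sfrp1 had 5.88 and 7.24 TPM and Sfrp5 had 8.34 and 4.53 TPM, so the order of these related genes changed between the libraries. Wif1, which also captures Wnts, had 3.84 and 3.22 TPM, and Sfrp4 had 3.80 and 1.85 TPM. The difference at Sfrp4, 1.75-fold (1.38 to 2.24), rested on 212 and 101 counts.

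Of the Dickkopf genes whose products block LRP5 and LRP6, none reached 1 TPM. Dkk2 (chromosome 3, 132085292 to 132180304) had 0.99 TPM from 125 counts in replicate 1 and 0.14 TPM from 17 counts in replicate 2, a fold of 6.13 (3.68 to 10.9). Dkk1 had 1 count in replicate 1 and 0 in replicate 2, and Dkk4 had 0 in both.

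Among the R-spondins, Rspo1 alone was detected, with 15.4 and 19.9 TPM, or 92.1% and 93.3% of the family's TPM. Rspo3 had 61 and 41 counts, Rspo4 had 21 and 62, and Rspo2 had 32 and 11, all at 0.81 TPM or less. Their receptors were low: Lgr4 had 5.80 and 4.64 TPM, Lgr6 had 3.58 and 4.35 TPM, and Lgr5, a stem cell marker of the gut, had 0.37 and 0.50 TPM from 41 and 54 counts. Znrf3 had 12.7 and 9.99 TPM and Rnf43 had 11.1 and 9.76 TPM, so the ubiquitin ligases that R-spondins remove stood at like levels in each library.

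Ctnnb1, which encodes beta-catenin, a protein of cell junctions as well as of the Wnt response, was the highest gene of the set at 168 and 134 TPM (151 ± 24.3 TPM, SD, n = 2), percentile 96.2 of protein-coding genes. Axin2, a direct target of the pathway, had 15.8 and 13.3 TPM. Axin1, the scaffold of the destruction complex, had 15.5 and 13.0 TPM. The axins were thus level with each other in each library, and their log2 ratios were both 0.03. Exons of Ctnnb1 overlap those of the opposite-strand gene Ulk4 by 759 bp; Ulk4 held 968 and 710 counts, 5.17% and 5.13% of those of Ctnnb1. Similarly, AU022754 overlaps Wnt7b by 324 bp on the opposite strand and held 45 counts in each library, 3.50% and 6.36% of those of Wnt7b. Opposite-strand genes without counts in these data overlap exons of Lef1 by 1208 bp and of Rspo3 by 404 bp. Their part in the counts of Lef1 and Rspo3 was not tested. The libraries were stranded per the labels, and whether the counting used strand is not stated in the sources at hand.

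All 4 TCF/LEF factors were detected and varied little. Tcf7l1, mostly a repressor, had 26.7 and 25.9 TPM, and Tcf7, also a marker of T cells, had 26.8 and 25.03 TPM. Tcf7l2 had 16.4 and 18.1 TPM, and Lef1 had 6.71 and 6.54 TPM. The summed level of the family was 76.6 TPM in replicate 1 and 75.5 TPM in replicate 2.

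Of this family, Lef1 and Tcf7l2 had more than 1 annotated coding start, and Lef1 RNA came to a large part from the later one. Transcript Lef1-201, with a coding sequence of 397 residues, held 44.8% of the gene's TPM in replicate 1 and 53.9% in replicate 2. Lef1-203, with 331 residues from a start codon of its own, held 52.2% and 40.5%. The main transcript by TPM therefore differed between the libraries, while by counts, which favour the longer transcript, Lef1-201 led in both, with 355 and 407 counts against 264 and 195 for Lef1-203. Transcripts from the first coding start held 85.2% and 93.4% of Tcf7l2, and those from a later one 0.99% and 0%. They held 100% of Tcf7 in both libraries and 99.8% and 98.3% of Tcf7l1. Complete coding transcripts of Tcf7 and Tcf7l1 have only 1 annotated coding start each, so these shares could not show a later start. The coding sequence of Lef1-203 shares its last 985 of 993 nt with that of Lef1-201 and is 66 residues shorter, so the forms differ at the N-terminus, the end through which LEF1 binds beta-catenin.

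The coding starts show where the forms part. Each line gives the first 60 bases of the coding sequence from GENCODE M21 transcripts, on the plus strand of chromosome 3, with the start codon in capitals; the start codons lie at position 131111472 for Lef1-201 and 131112812 for Lef1-203.
Lef1-201: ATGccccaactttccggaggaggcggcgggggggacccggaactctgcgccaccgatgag
Lef1-203: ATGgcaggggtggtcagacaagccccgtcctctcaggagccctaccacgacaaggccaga

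The transcripts also begin at separate places, at 131110471 and 131112797, and each has a RefSeq start nearby, 148 and 6 bp away. The 250 bases before each RefSeq start (GRCm38.p6, plus strand) are shown because they carry unlike base composition, with every CG pair in capitals. The first lies at chr3:131110073-131110322 and the second at chr3:131112541-131112790.
Lef1-201: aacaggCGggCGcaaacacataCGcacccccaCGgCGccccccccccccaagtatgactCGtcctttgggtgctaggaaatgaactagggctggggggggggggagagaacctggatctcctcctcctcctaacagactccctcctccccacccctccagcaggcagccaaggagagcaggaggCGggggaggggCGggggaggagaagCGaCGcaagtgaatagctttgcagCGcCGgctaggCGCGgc
Lef1-203: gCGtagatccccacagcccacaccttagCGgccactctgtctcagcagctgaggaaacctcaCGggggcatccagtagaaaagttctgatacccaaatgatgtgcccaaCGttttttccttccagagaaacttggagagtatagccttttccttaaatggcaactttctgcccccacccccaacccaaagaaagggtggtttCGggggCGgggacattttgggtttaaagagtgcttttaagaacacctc

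The upstream window of Lef1-201 holds 14 CG pairs at 66.4% G or C, an observed-to-expected CpG ratio of 0.508. That of Lef1-203 holds 6 at 50.8%, a ratio of 0.375. These are descriptions of the sequence and were not tied to the use of either start.

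Windows of 300 bases at RefSeq starts were found for 37 of the 57 genes, 47 in all, and set beside 21263 windows of protein-coding genes. The median G or C content was 67.3% for the Wnt pathway genes and 56.3% for all, and the CpG ratio 0.754 and 0.567. The GC box GGGCGG, searched on both strands, was in 72.3% of the pathway windows and 46.2% of all. A TCF/LEF core, CTTTGA on either strand, was in 5 of the 47 windows, or 10.6%, against 14.4% of all. CCAAT was in 29.8% against 38.2%, and TATAAA in 19.1% against 12.6%. No motif contains another of these, and a match is a stretch of letters, not a shown site.

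Transcripts were followed further in the 32 genes whose level was at least 5 TPM in each library. The transcript of highest TPM was the same in both libraries for 26 of them, 9 of which have a single transcript. It differed for Wnt11, Wnt2, Lrp5, Rnf43, Lef1 and Fzd6. By counts, which favour longer transcripts, it was the same in 30 of the 32 genes and differed only for Wnt2 and Fzd6. Transcripts with a complete coding sequence held at least 90% of TPM in both libraries for 21 genes and under 50% in both for Wnt11 and Sfrp2.

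Wnt11 was spread over transcripts that do not encode the full ligand. Wnt11-204, annotated as a target of nonsense-mediated decay, held 43.6% in replicate 1 and 27.2% in replicate 2, and Wnt11-203, an incomplete coding model of 99 residues, held 32.1% and 52.1%. Complete coding transcripts held 20.9% and 17.7%, which is 5.85 and 7.36 TPM. On that scale Wnt11 fell below Wnt10b (24.8 and 15.5 TPM), Wnt3a (13.6 and 8.71 TPM) and Wnt7a (9.60 and 9.03 TPM) in both libraries. It was also below Wnt7b, Wnt4, Wnt2 and Wnt9a in replicate 1 (11.3, 10.3, 7.80 and 6.13 TPM). In replicate 2 it was above these (6.34, 5.67, 5.83 and 7.27 TPM). By counts, which favour longer transcripts, Wnt11-204 led Wnt11-203 in both libraries, with 524 and 473 against 138 and 325. Sfrp2-202, a processed transcript of 600 nt with no coding sequence, held 70.0% and 58.4% of Sfrp2 TPM. The coding Sfrp2-201, of 295 residues and 2003 nt, held 30.0% and 41.6%. By counts the order was the reverse, with 837 and 799 on Sfrp2-201 against 425 and 245 on Sfrp2-202.

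Lrp5 was divided between the full co-receptor transcript Lrp5-201, with 1614 residues (50.1% and 47.2%), and Lrp5-203, annotated as a target of nonsense-mediated decay (45.8% and 50.7%). By counts Lrp5-201 led in both libraries, with 6979 and 6581 against 3383 and 3748. For Wnt2, the coding transcript Wnt2-201 held 52.4% and 34.7%, and the rest lay on a transcript absent from the later annotation. Rnf43-202 held 38.3% and 40.2% and Rnf43-203 held 33.5% and 51.9%, with 784 and 743 residues. By counts Rnf43-202 led Rnf43-203 in both libraries, with 590 and 529 against 327 and 434. The forms of Fzd6, Fzd6-202 (62.3% and 49.6%) and Fzd6-201 (37.7% and 50.4%), encode the same number of residues, 709. Znrf3 kept its order, with Znrf3-203, of 809 residues, at 68.3% and 64.2% and Znrf3-201, of 913 residues, at 29.9% and 35.3%.

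The largest move among the named transcripts was in Ctnnb1. Ctnnb1-201, which encodes the 781 residues of beta-catenin, held 82.9% of the gene's TPM in replicate 1 and 52.6% in replicate 2, or 140 and 70.5 TPM. Ctnnb1-209, a retained-intron transcript, held 2.18% and 25.7%, or 3.67 and 34.5 TPM. Lrp6 also had less of its coding transcript in replicate 2, with Lrp6-201 at 81.5% and 61.6%. Retained-intron transcripts held 3.55% and 6.63% of the TPM of the pathway genes, beside 6.996% and 8.81% over all genes. Without Ctnnb1-209 the share in the pathway genes was 3.17% and 2.84%, so its higher value in replicate 2 rested on that transcript.

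Other transcripts at 20% or more kept their order between the libraries. Axin2-201 held 51.2% and 53.8% and the non-coding Axin2-203 held 27.2% and 23.1%. Porcn-203 held 57.1% and 60.8% and the retained-intron form Porcn-206 held 26.0% and 22.8%. Tcf7-202 held 62.9% and 63.5% and Tcf7-201 37.1% and 36.5%, with 303 residues each, while Tcf7l2-222, of 477 residues, held 49.9% and 60.7%. Tcf7l1-201 held 79.6% and 73.5% and Tcf7l1-202 20.2% and 24.8%. Fzd5-202 held 73.1% and 83.9% beside Fzd5-201, Wnt10b-201 held 67.3% and 72.9% beside Wnt10b-202, and Wnt5a-201 held 71.5% and 81.7% beside the non-coding Wnt5a-203. A single form held over 90% in both libraries for Axin1 (Axin1-201, 94.9% and 92.9%), Wnt7b (Wnt7b-201, 98.2% and 91.4%) and Rspo1 (Rspo1-201, 90.5% and 95.1%), and Wnt9a-202 held 91.8% and 87.2%. In each of these genes the leading form was the same in both libraries.

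**Figure D2:**
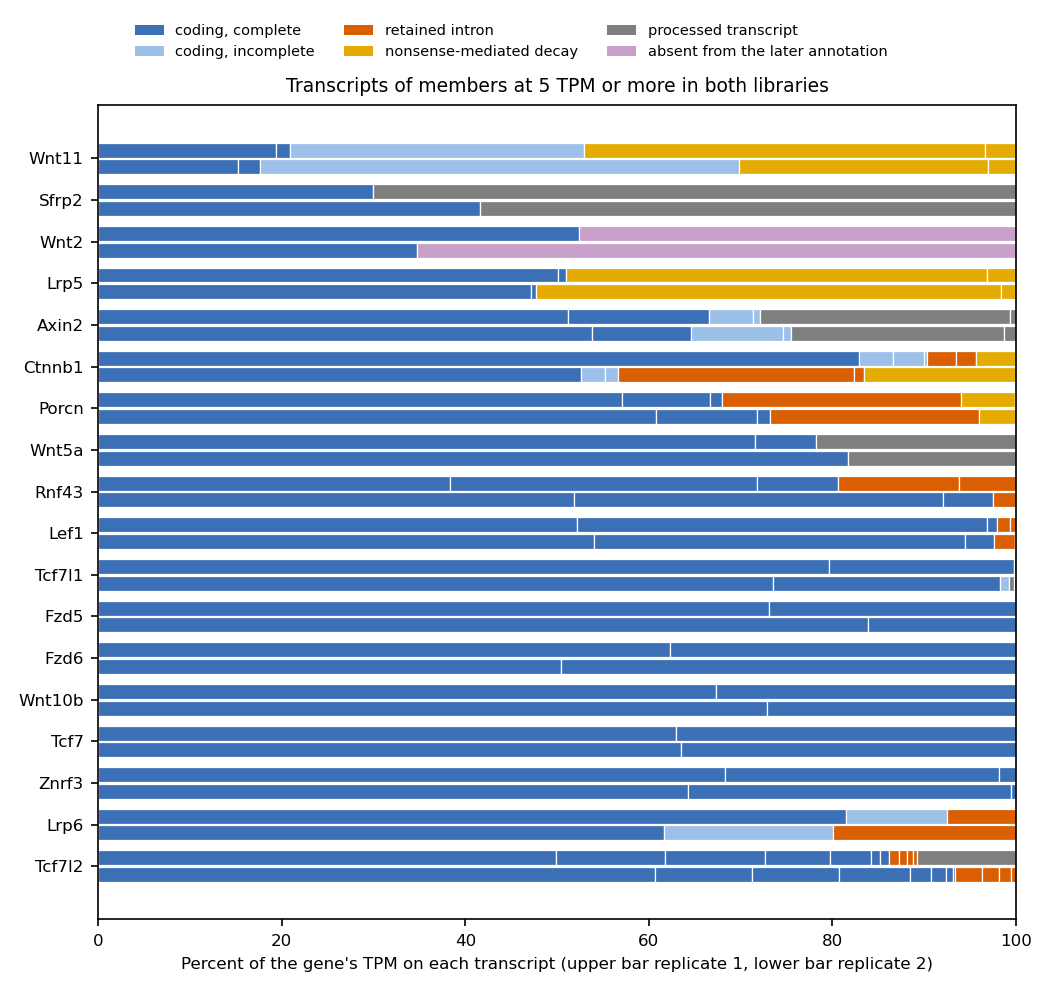
Percent of each gene's TPM on its transcripts, coloured by annotated class, with the upper bar for replicate 1 and the lower bar for replicate 2; shown are genes with more than 1 transcript at 20% or more, and Lrp6 and Tcf7l2, which were added after their values were seen. The retained-intron share of Ctnnb1-209 is 2.18% in replicate 1 and 25.7% in replicate 2.

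Between the libraries, 44 of the 57 genes averaged 50 counts or more, and 4 of these were at least 2-fold apart, beside 6.66% of all 14708 genes past that minimum. All 4, namely Wnt10a, Dkk2, Fzd10 and Fzd6, were higher in replicate 1, beside 4.45% of all genes; 0 were higher in replicate 2, beside 2.21%. That all lay in 1 direction held for this minimum and fold. At 1.5-fold, 8 genes were higher in replicate 1 and 5 in replicate 2 (Fzd4, Fzd8, Wnt5b, Wnt2b and Rspo1). With no count minimum 7 and 2 were 2-fold apart, the last being Rspo4 and Wnt9b. The share of all genes was not computed at 1.5-fold or without the minimum, so these counts have no background beside them. Wnt10a, Dkk2 and Fzd10 passed the count minimum only through replicate 1, so they had to differ, and with log2(TPM + 1) differences only Wnt10a and Fzd6 remained 2-fold apart. Beside these values, 4 of 5 genes listed as basal epithelial markers, Krt5, Krt14, Krt15 and Trp63, were also 2-fold higher in replicate 1. The 5 summed to 194 TPM against 5.39 TPM, and the other, Ngfr, was level at 1.69 and 1.81 TPM. Whether they came from airway or from squamous epithelium was not tested. All 8 squamous and all 8 skeletal muscle markers were also higher in replicate 1. Of the muscle markers 3 and of the squamous markers 2 were at 0 in replicate 2. Their part in the differences of the 4 Wnt pathway genes was not tested.

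The remaining 40 tested genes stayed within 2-fold. The absolute log2 ratio had a median of 0.34 over the 44 genes and 0.28 over all genes, and 28 of the 44, or 63.6%, lay within 0.5, against 74.6% of all genes. The median log2 ratio was -0.11, beside 0.00 over all genes, with 20 ratios above 0 and 24 below. Its sign depended on scaling: by library size alone it was 0.03, where the median over all genes was 0.14, and with log2(TPM + 1) it was 0.16 against 0.18.

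**Figure D3:**
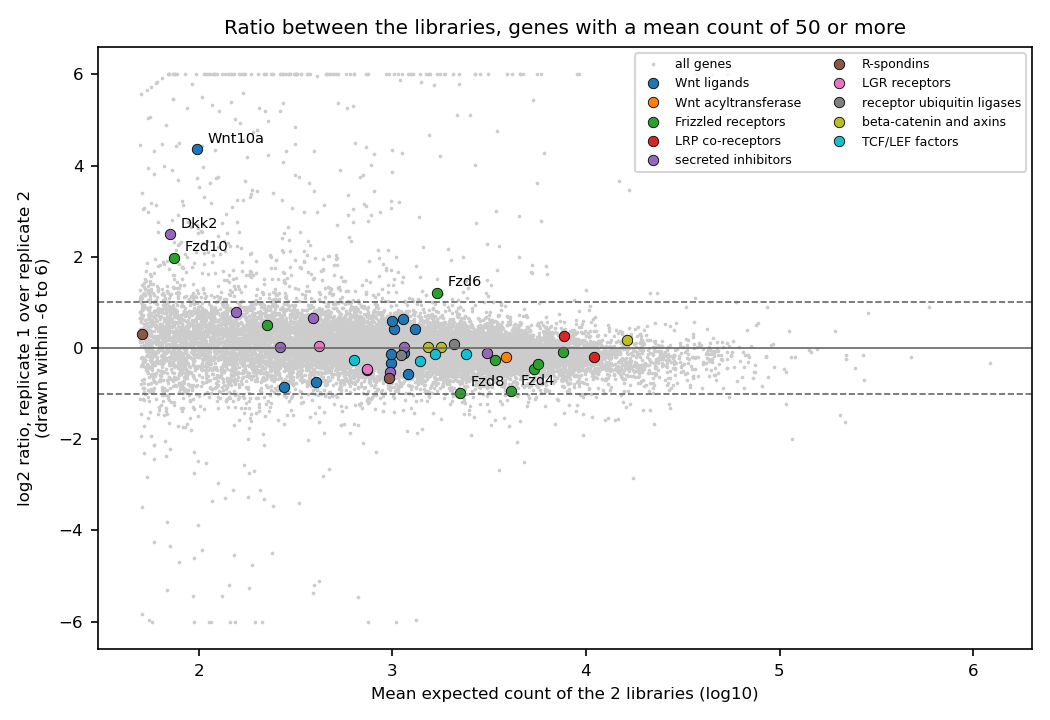
Log2 ratio of replicate 1 over replicate 2 against the mean expected count on a log10 axis, for all genes averaging 50 counts or more in grey and for 44 Wnt pathway genes coloured by role; dashed lines mark 2-fold. Wnt10a, Dkk2, Fzd10 and Fzd6 lie above the upper line, and Fzd4 and Fzd8, with log2 ratios of -0.94 and -0.98, lie just inside the lower one.

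The surrounding pathway was read through 74 further genes in 7 lists. Of these, 67 were detected in both libraries, beside 60.5% of all protein-coding genes, and 69 averaged 50 counts or more. The lists were chosen with earlier results of these data known, so their detection describes the listed genes only. Among these 69, 2 were 2-fold higher in replicate 1, beside 4.45% of all genes, and 1 in replicate 2, beside 2.21%, so neither count stood above the share over all genes. All 6 genes of Wnt secretion and extracellular enzymes were detected. Tinagl1, an extracellular matrix protein, had 119 and 207 TPM and, with a log2 ratio of -1.002, was called higher in replicate 2, a call lost by library size and on both TPM scales. Gpc3, a glypican that binds Wnts, had 152 and 139 TPM, and Wls, the carrier that brings Wnts to the cell surface, had 39.3 and 24.0 TPM.

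Of 9 co-receptors and receptor kinases, 8 were detected and 0 were 2-fold apart. The kinase-like receptors Ryk (67.5 and 49.4 TPM) and Ptk7 (48.9 and 47.9 TPM) and the adhesion receptor Adgra2 (55.0 and 67.3 TPM) were highest. Among 9 other secreted proteins, listed as antagonists without a test of that activity, 6 were detected. Igfbp4 (424 and 422 TPM), a binding protein of insulin-like growth factors, led, followed by Apcdd1 (15.7 and 19.8 TPM) and Shisa2 (9.52 and 7.47 TPM). Igfbp4 was level in TPM, yet had 22106 and 31245 counts, a log2 ratio of -0.76. Dkkl1 (5.19 and 1.19 TPM, 3.74-fold) and Draxin (0.52 and 0.14 TPM, 3.27-fold) were higher in replicate 1, on 130 and 29 counts and on 94 and 24 counts; both passed the count minimum only through replicate 1, so they had to differ, and the call of Draxin was lost with log2(TPM + 1).

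All 14 listed genes of the cytoplasmic relay and destruction complex were detected, and 0 of them were 2-fold apart, beside 6.66% of all genes. Dvl1, which links Frizzled to Axin, had 113 and 148 TPM, and the kinases Gsk3a and Csnk1e had 98.4 and 93.6 TPM and 91.3 and 81.6 TPM. All 12 nuclear co-factors were detected, again with 0 called. The co-repressors Tle2 (146 and 205 TPM) and Ctbp1 (146 and 146 TPM) led, followed by Pygo2, a beta-catenin co-activator. Pygo2 had 53.8 and 129 TPM, yet 4507 and 5016 counts, so it was 2-fold higher in replicate 2 on the TPM scales and not in the counts. Of 14 planar cell polarity genes, 13 were detected and 0 called, with Fuz (69.0 and 76.7 TPM), Scrib (51.3 and 52.5 TPM) and Prickle1 (55.2 and 41.2 TPM) highest.

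Of 10 feedback and target genes outside the 57, 8 were detected and none was 2-fold apart. Their median log2 ratio was -0.47, beside 0.00 over all genes. Under every scaling tried 6 of 8 ratios were below 0 and the median was between -0.49 and -0.27, where medians over all genes were between -0.01 and 0.21. A change of library factor moves all genes together, so the repeat adds no separate result. The share of all genes below 0 was not computed. Ccnd1, the cyclin D1 gene, had 89.7 and 120 TPM, Nkd1, a feedback inhibitor, had 56.9 and 69.2 TPM, and Nrarp had 40.8 and 64.5 TPM. The ratios above 0 were those of Tnfrsf19 (0.69) and Cd44 (0.12). The target Axin2, with a log2 ratio of 0.03, also lay on that side.

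**Figure D4:**
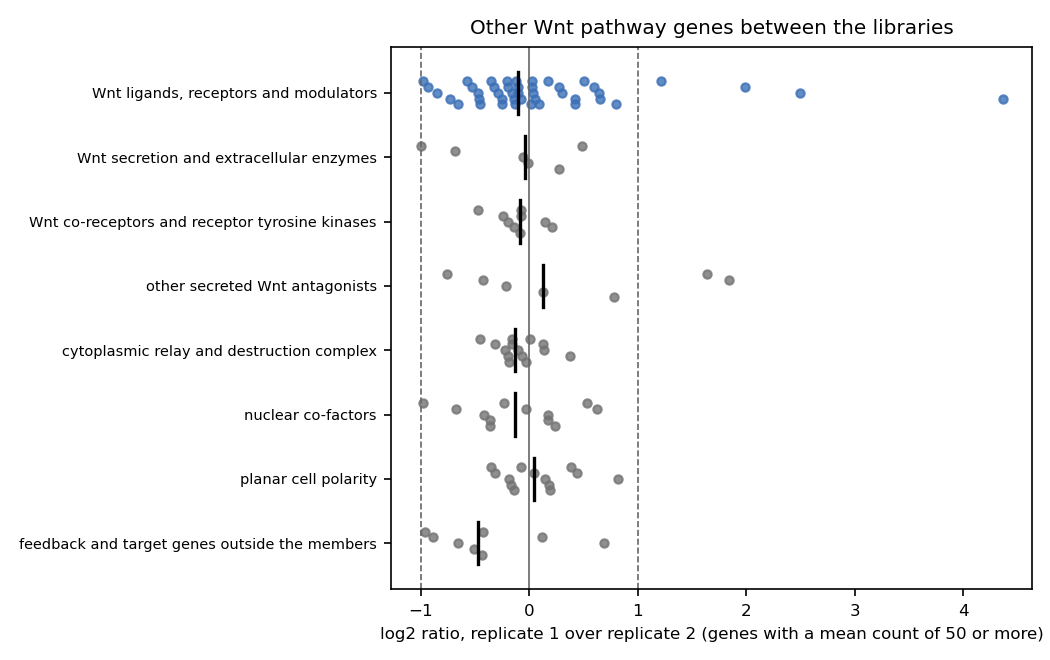
Log2 ratio of replicate 1 over replicate 2, 1 point per gene, for genes that averaged 50 counts or more. The top row, in blue, holds the Wnt ligands, receptors and modulators, and the rows below, in grey, hold the 7 further Wnt pathway lists. Black bars mark medians. Of 8 feedback and target genes 6 lie below 0. Within the 7 further lists, Dkkl1 and Draxin, which passed the count minimum only through replicate 1, lie furthest above 0, at 1.84 and 1.64. In the top row Wnt10a, Dkk2 and Fzd10 lie further above 0, at 4.37, 2.50 and 1.98.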

How the data were processed

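Stranded paired-end RNA-seq of polyadenylated RNA above 200 nt was made from 2 lung libraries with reads of 76 nt and synthetic spike-ins, per the labels. The authors' file lists name mm10 and GENCODE M4 for alignment and quantification, and no aligner or quantifier is named in the sources at hand. Expected counts, as deposited, are fragments estimated for a gene or transcript without normalization. TPM, as deposited, sums to a fixed total over a library's rows, and FPKM, as deposited, divides fragments by length and by the library's total. The authors also gave, for every transcript, its percent of the gene's TPM. Intervals on folds cover counting error only.

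Symbols and coordinates came from GENCODE M21 on mm10, which named 42462 of 43346 gene identifiers, with 99.9% of counts. The 26248 rows without a gene held 0 and 2 counts and were left out, as were 97 spike-in rows with 704282 and 461067 counts. Rounded counts were scaled with edgeR 4.0.16 (TMM factors 1.05 and 0.954, prior count 2) or DESeq2 1.42.0 size factors under R 4.3.3. Everything else ran in Python 3.11.15 (pandas 2.3.3, numpy 2.4.6, scipy 1.17.1, matplotlib 3.10.9). A gene was detected at 1 TPM, and a 2-fold difference needed a mean count of 50. The rule for names took each of the 57 genes that reached 1 TPM in a library or was 2-fold apart, the 3 genes of highest mean TPM in each further list with those 2-fold apart, and transcripts at 20% or more of genes at 5 TPM. The calling rule was run on simulated counts with an assumed spread, as a check of the procedure that gives no error rate for these libraries. The 57 genes, the lists and the rules were chosen with earlier results of these data known. Alternatives covered detection limits, scaling, pseudocounts, count minimums, fold limits, the choice of main transcript and leaving out either replicate. Contig and junction lists on mm9 were not used here.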

Additional observations from a re-analysis of the deposited data

How the results depend on the processing

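The count of genes 2-fold apart, 4, was 4 with DESeq2 size factors, with library size alone, with log2(TPM + 0.1) and for intervals wholly beyond 2-fold, and the genes were the same under those scalings. It was 2 with log2(TPM + 1), 9 with a mean count of at least 10 or with no minimum (7 higher in replicate 1 and 2 in replicate 2), 7 with at least 20 (6 and 1), and 13 at 1.5-fold (8 and 5). For the other minimums and for 1.5-fold the share over all genes was not computed. Over all genes the split of higher in replicate 1 to higher in replicate 2 was 655 to 325 with TMM, 643 to 341 with DESeq2 size factors, 816 to 234 by library size, 608 to 168 with log2(TPM + 1) and 980 to 232 with log2(TPM + 0.1). The sign of the ratio changed for 1 of 44 genes with DESeq2 size factors, 5 by library size and 9 with either TPM scale. Detection ranged from 38 to 48 of the 57 genes and from 61 to 72 of the 74 others; it was 40 without replicate 1 and 42 without replicate 2, and 67 either way for the others. The main transcript was shared in 30 of 32 genes by transcript counts and in 27 by posterior mean TPM, and in 33 of 40 at 1 TPM and 18 of 21 at 10 TPM. Ratios and shared transcripts cannot be computed from a single library. No paired analysis was possible because there is 1 group. Depth limits the genes under 1 TPM, which rest on at most 125 counts.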
